A study of Bos taurus with 6 samples.

Results

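ADIPOQ and DGAT2 are genes of fat-storing cells, and their transcripts were examined here in the longissimus muscle of Qinchuan beef cattle. They were selected by name, as the rows of the authors' deposited expression table whose gene symbol is ADIPOQ or DGAT2. Each symbol has 1 row, so that they make up 2 of 5288 listed transcripts (5206 distinct symbols). The libraries were made from rRNA-depleted RNA of 3 embryos, taken 90 days after fertilization, and of 3 adult cattle, taken 24 months after birth, without any treatment in either group. All 6 muscles came from the same breed and from a slaughterhouse, and neither the labels nor the methods give the sex, feed or fatness of the animals. The table gives 1 FPKM value per stage (fragments counted per kilobase of exon, relative to all mapped fragments of the library), the authors' value for the 3 animals together. No spread between animals could therefore be computed, no test between the stages was run, and the number of fragments behind a value is unknown. The table holds transcripts that the authors called different between the stages, and no others. By the FPKM values, each of them differs by 2-fold or more between the stages or has a 0 in 1 of them.

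Adipocytes lie between the fibre bundles of muscle, where they form the marbling for which beef is graded. Within them, fatty acids are joined to a glycerol backbone in successive acylation steps, and the triacylglycerol formed is kept in a lipid droplet until lipases release it. Adiponectin, the product of ADIPOQ, is a hormone that adipocytes secrete, and muscle responds to it through the receptors ADIPOR1 and ADIPOR2 and the AMP-activated protein kinase. DGAT2 is an enzyme of the endoplasmic reticulum and the lipid droplet that adds the last fatty acid, turning diacylglycerol into triacylglycerol. ADIPOQ is made almost only by adipocytes, whereas DGAT2 is also used by other cells that make triacylglycerol, such as hepatocytes. The purpose of the comparison was to see whether the transcripts that mark fat cells stand at different levels in embryonic and adult muscle.

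ADIPOQ was close to the bottom of the table in the embryo and stood below the median listed transcript in the adult. Its authors' FPKM was 0.252 in the embryo and 6.75 in the adult, a 26.8-fold higher value in adult muscle (log2 of adult over embryo 4.74). DGAT2 was lower than ADIPOQ in both stages. Its authors' FPKM was 0.0756 in the embryo and 3.01 in the adult, a 39.8-fold higher value in adult muscle (log2 5.31). Both genes were thus more than 16-fold higher in the adult, and both had an embryonic FPKM far below 1, so that the size of either ratio rests on a low value. Of all listed transcripts, 90.3% were at least 2-fold higher in adult muscle, 69.5% at least 4-fold and 20.1% at least 16-fold, against 9.68% that were at least 2-fold higher in the embryo. A higher adult value is therefore the usual direction in this table and not a property of these genes. With an added pseudocount of 1 FPKM, the log2 difference was 2.63 for ADIPOQ and 1.90 for DGAT2, so that the order of the genes was turned.

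Set against the other listed transcripts, both genes combined a low level with a large difference. Only called transcripts are listed, and a low embryonic level leaves little room for a lower adult one. The listing itself thus favours this combination. In the embryo, 297 transcripts (5.62%) had a lower FPKM than ADIPOQ, and 26 (0.492%) had a lower FPKM than DGAT2. In the adult, 2014 transcripts (38.1%) lay below ADIPOQ and 1063 (20.1%) below DGAT2, so that neither gene reached the median adult FPKM of 11.0. Among transcripts above 0 in both stages, 575 had a larger log2 difference than ADIPOQ and 327 a larger one than DGAT2. The median log2 difference of these transcripts was 2.71. The FPKM of ADIPOQ was 3.33 times that of DGAT2 in the embryo and 2.25 times in the adult, and without values for single animals it cannot be said whether this ratio differed between the stages.

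**Figure D1:**
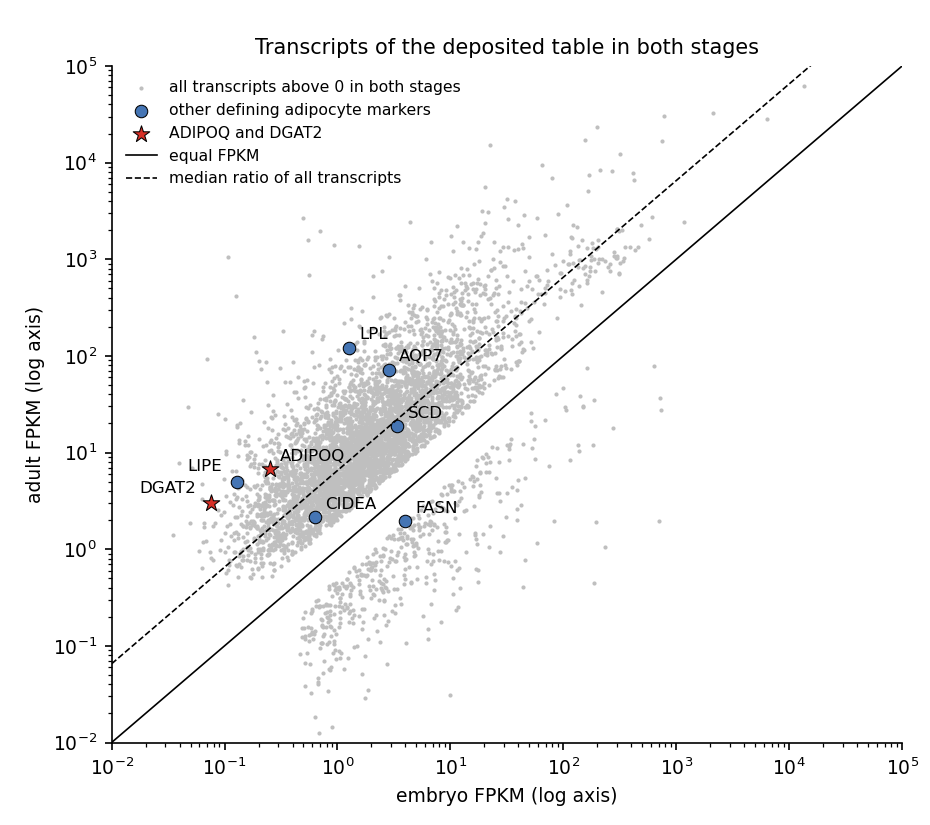
Embryonic FPKM (horizontal log axis) and adult FPKM (vertical log axis) of the listed transcripts above 0 in both stages, with 1 grey point per transcript, stars for ADIPOQ and DGAT2 and blue circles for the other defining adipocyte markers. The solid line marks equal FPKM and the dashed line the median log2 difference of 2.71. ADIPOQ, DGAT2 and LIPE lie towards the left of the cloud and above the dashed line, and FASN lies below the solid line.

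The ADIPOQ row stands for the Ensembl gene ENSBTAG00000019813 and transcript ENSBTAT00000026395, at chr1:81005167-81018328 in the file. The DGAT2 row stands for ENSBTAG00000001154 and ENSBTAT00000001536, at chr15:55938802-55978439. These spans cover 13162 and 39638 bases and include the introns. The paper names bosTau7 as the genome, but the file itself names no build. In the RefSeq annotation of the ARS-UCD2.0 assembly, 0 other annotated genes overlap ADIPOQ and 0 overlap DGAT2.

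The markers that define an adipocyte were covered in part. Of 20 such symbols, 8 have a row in the table, where 22.4% of all background genes of the GO tables were called. The same 22.4% is to be set beside the counts of symbols with a row in the lists that follow. Among these 8 markers, the adult value was higher for 7 (87.5%, against 90.3% in the whole table) and lower for 1. Their median log2 difference was 4.70. ADIPOQ and DGAT2 are counted among the 8, so that neither number is independent of the pair. LEP (leptin), PLIN1 and PLIN4 (coats of the adipocyte lipid droplet), CIDEC (droplet fusion) and FABP4 (the adipocyte fatty acid carrier) have no row under these names. The same holds for PPARG and CEBPA (the transcription factors that drive fat cell formation), CFD (adipsin), RETN, ADRB3, THRSP and GPAM. A symbol without a row was not analysed here, and its level in either stage is unknown. The label of fat cells rests on ADIPOQ, the channel AQP7, the droplet protein CIDEA and enzymes that muscle fibres and other cells can also use. The presence of adipocytes cannot be read from these rows alone.

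Here and in what follows, a pair of values gives the embryonic FPKM first and the adult FPKM second. LIPE, the hormone-sensitive lipase of fat mobilization, is listed under its older name HSL and stood nearest to the pair among the defining markers. It had 0.129 and 4.99 (log2 5.28), between DGAT2 and ADIPOQ in both stages. AQP7, a channel through which adipocytes release glycerol, had 2.85 and 72.0 (log2 4.66). LPL, the lipase that frees fatty acids from circulating lipoproteins and is made by muscle fibres as well as adipocytes, had 1.27 and 122 (log2 6.58). The adult values of AQP7 and LPL exceeded that of ADIPOQ, and LPL stood at 5.05 times the ADIPOQ level in the embryo and at 18.0 times in the adult. SCD, which puts a double bond into stearate, had 3.38 and 18.7 (log2 2.47). A second transcript of its Ensembl gene, listed under the identifier ENSBTAG00000047957 and not counted in the lists, had 9.14 and 29.8 (log2 1.71). CIDEA, a droplet protein of brown and white adipocytes, had 0.628 and 2.14 (log2 1.77). These differences are below the median of all transcripts, and the direction of both SCD transcripts and of CIDEA flips when the stages are scaled to the same FPKM total. FASN, the fatty acid synthase, was the marker in the opposite direction, with 3.97 in the embryo and 1.96 in the adult (log2 -1.02).

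**Figure D2:**
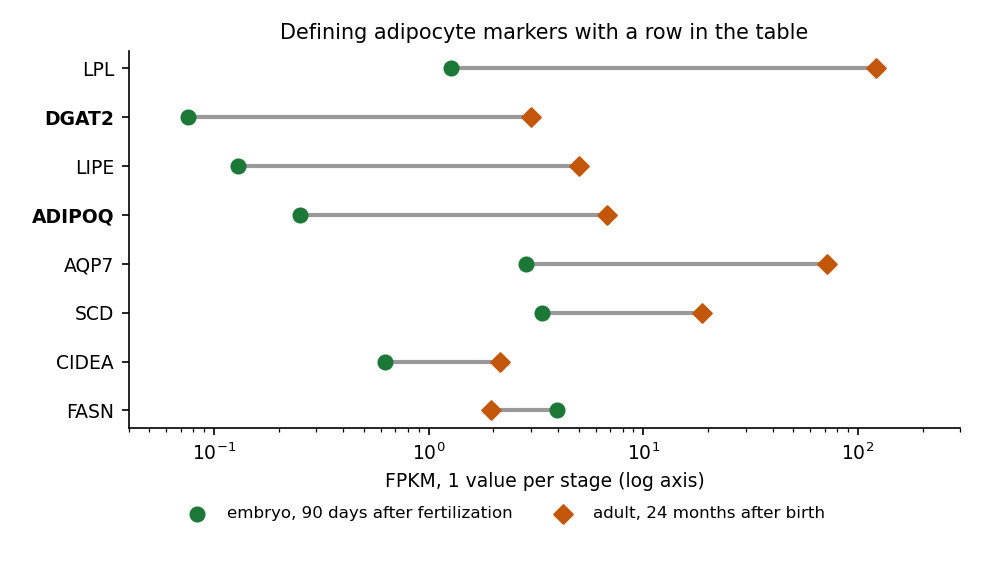
FPKM on a log axis of the 8 defining adipocyte markers with a row, ordered by their log2 difference, with a green circle for the embryo and an orange diamond for the adult (1 authors' value per stage, no error bars possible). ADIPOQ, DGAT2 and LIPE run from below 0.3 to between 3.01 and 6.75, AQP7 and LPL end at 72.0 and 122, and FASN alone runs the other way, from 3.97 to 1.96. The directions of SCD and CIDEA flip under scaling to the same FPKM total.

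Genes on the route to the DGAT2 reaction were listed in opposite directions. Of 22 symbols of triacylglycerol synthesis, 5 have a row, near the share of 22.4% for all background genes. Of these, 3 had the higher value in the adult and 2 in the embryo. The median log2 difference of the 5 was 5.31, the value of DGAT2 itself. GPD1, which makes glycerol 3-phosphate and also serves glycolysis in muscle, had 2.87 and 1066 (log2 8.54). AGPAT5, of a family that adds the second fatty acid, had 1.72 and 143 (log2 6.38). By contrast, AGPAT1 of that family had 8.71 and 1.83 (log2 -2.25), and AGPAT4 had 0.815 and 0.225 (log2 -1.86). DGAT2 had the lowest embryonic FPKM of the 5, and its adult FPKM lay above those of AGPAT1 and AGPAT4. DGAT1, the unrelated enzyme that catalyses the same last step, has no row, nor do the lipins LPIN1, LPIN2 and LPIN3. In the KEGG label for glycerolipid metabolism, which DGAT2 carries, 11 of 14 transcripts were higher in the adult and 3 lower, with a median of 2.01 that drops below 0 under each of the 4 planned scalings. At the same FPKM total, 4 of the 14 were higher. Only ALDH2, an aldehyde dehydrogenase (5.84), and LPL had a larger log2 difference there than DGAT2. In its label for fat digestion and absorption, 5 of 7 transcripts were higher (median 3.42, below 0 after centring on the housekeeping list).

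Fatty acid synthesis, which feeds this route, stood lower in the list medians. Of 18 symbols, 8 have a row, 6 higher and 2 lower in the adult, with a median log2 difference of 1.79 that turns negative under scaling to the same FPKM total or to the ribosomal or housekeeping genes. ACACB, the acetyl-CoA carboxylase of the mitochondrial surface, had 0.798 and 30.8 (log2 5.27). ACACA, its cytosolic counterpart in fatty acid synthesis, had 1.25 and 2.57 (log2 1.04). The mitochondrial form thus had the larger difference and the higher adult level of the pair. IDH1, an NADPH source that ruminant adipose tissue relies on, had 1.13 and 8.07 (log2 2.83). FADS1, a desaturase, had 0.930 and 0.214 (log2 -2.12). ACSS2, the acetyl-CoA synthetase that activates acetate, had 5.40 and 13.5, and ELOVL7, an elongase, had 0.204 and 0.976. ACACA and FASN are the enzymes that carry out cytosolic synthesis, and both stood below 4 FPKM in either stage.

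In the lipid droplet and lipolysis lists every transcript was higher in the adult, as were 90.3% of all listed transcripts. Of 18 symbols of the droplet coat and caveolae, 10 have a row and 10 were higher, with a median log2 difference of 3.29. At the same FPKM total, which lowers log2 values by 3.25, 5 of the 10 were still higher, and the median drops below 0 after centring on the housekeeping list. PLIN2 and PLIN5, droplet coats found in muscle fibres, had 1.33 and 44.5 (log2 5.06) and 1.15 and 31.0 (log2 4.75). FITM1, a droplet-forming protein of muscle, had 4.60 and 66.4 (log2 3.85), and its relative FITM2 had 1.45 and 13.4 (log2 3.21). CAV1, the caveolin of adipocytes and endothelium, had 17.2 and 179 (log2 3.38). PLIN1 and CIDEC, droplet proteins typical of fat cells, are among the symbols without a row. Of 11 lipolysis symbols, 4 have a row and 4 were higher (median 4.78, above 0 under each of the 4 planned scalings). PNPLA2, the triacylglycerol lipase that opens lipolysis, had 1.20 and 35.9 (log2 4.91), and AQP3, another glycerol channel, had 0.233 and 1.92 (log2 3.04). PNPLA2 stood at 4.74 times the ADIPOQ level in the embryo and at 5.31 times in the adult.

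DGAT2 carries 28 GO labels in the table, of which 6 are on no other transcript whose GO cell was used. The GO cells of 206 transcripts were not used, so that further carriers of any label below may be missing. These include the label for triglyceride biosynthesis and that for diacylglycerol O-acyltransferase activity. The label for lipid storage is shared with PLIN2, that for cellular triglyceride homeostasis with FITM2, and that for fat pad development with ARRDC3. On the lipid particle label, 17 of 17 transcripts were higher in the adult (90.3% in the whole table), with a median of 3.53 that drops below 0 after centring on the housekeeping list, and DGAT2 and LIPE had the largest differences, followed by PLIN2, PNPLA2 and PLIN5. In the authors' GO numbers, 18 of 50 background genes of the lipid particle were called (36%), against 4861 of 21673 genes in all (22.4%). For positive regulation of the sequestering of triglyceride, 4 of 5 background genes were called, and FITM1, FITM2, LPL and OSBPL11 carry that label in the table. For adiponectin-activated signalling it was also 4 of 5. The rows that carry this label are those of CSNK2B, a kinase subunit, ACSL1 and separate transcripts of the fatty acid transporter SLC27A1. These 4 rows thus stand for fewer than 4 genes. No test was made on these numbers. The GO cell of ADIPOQ was not used here.

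ADIPOQ was listed together with one of its receptors and with subunits of the kinase that acts below it. Of 27 symbols for the assembly, receptors and signalling of adiponectin and its relatives, 15 have a row. Adult values were the higher ones for 13 and the lower ones for 2 of them, and the median log2 difference was 3.26, or below 0 after centring on the housekeeping list. ADIPOR1, the receptor most used in muscle, had 2.14 and 13.3 (log2 2.63), close to the median of all transcripts, and its direction flips under scaling to the same FPKM total. The receptor genes ADIPOR2 and CDH13 have no row. APPL2, a relative of the adaptor that binds the receptor, had 2.91 and 30.4 (log2 3.39). Of the AMP-activated protein kinase, the catalytic subunits PRKAA1 (0.664 and 25.0, log2 5.23) and PRKAA2 (1.71 and 34.1, log2 4.32) and the regulatory subunit PRKAG1 (0.480 and 10.6, log2 4.47) had larger differences than the receptor. The subunit PRKAB1 had a smaller one (3.31 and 15.0, log2 2.18), and its direction flips under each of the 4 planned scalings. PPARGC1A, a coactivator of mitochondrial genes, had 0.583 and 10.8 (log2 4.21), and CAB39, which helps the upstream kinase STK11, had 5.44 and 106 (log2 4.28). ERP44 and ERO1A (listed as ERO1L), which hold and oxidize adiponectin in the endoplasmic reticulum, had 0.742 and 2.79 (log2 1.91) and 0.597 and 2.09 (log2 1.81). The direction of these 2 genes flips under each of the 4 planned scalings.

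Of 11 adipokine symbols, ADIPOQ included, 3 have a row, where 22.4% of all background genes of the GO tables were called. All 3 were higher in the adult (median 4.74, the value of ADIPOQ). NAMPT, an enzyme of NAD synthesis that is also secreted, had 0.508 and 55.1 (log2 6.76), so that its difference and its adult level exceeded those of ADIPOQ. The listed relatives of adiponectin were split in direction. C1QTNF6 had 9.60 and 0.739 (log2 -3.70), and C1QTNF3 had 18.3 and 6.29 (log2 -1.54). C1QTNF9 was higher in the adult like ADIPOQ, with 0.153 and 1.97 (log2 3.68, below 0 after centring on the housekeeping list). The KEGG labels of ADIPOQ had shares of transcripts higher in the adult that were near the 90.3% of the whole table. Of the 22 transcripts with the label of adipocytokine signalling, 21 were higher (median 3.60), and of the 22 with the label of PPAR signalling, 20 were higher (median 3.66). Both medians drop below 0 after centring on the housekeeping list. ADIPOQ exceeded both of them. FABP3, the fatty acid carrier of muscle and heart, led the PPAR label with 2.46 and 753 (log2 8.26), more than 100 times the adult level of ADIPOQ. In the list of fatty acid uptake and binding, all 11 transcripts with a row were higher in the adult (median 3.88, below 0 after centring on the housekeeping list), among them VLDLR, a lipoprotein receptor (2.16 and 113), ACSL1, which activates fatty acids (2.76 and 171), and FABP5, another carrier (0.945 and 23.2). Neither CD36 nor FABP4 has a row there.

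Genes of fat cell precursors stood the other way from ADIPOQ and DGAT2. Of 11 symbols of preadipocytes and fibro-adipogenic progenitors, 5 have a row, 4 higher in the embryo and 1 in the adult, with a median log2 difference of -3.93. DLK1, the preadipocyte factor that holds back fat cell formation and is also made by embryonic muscle, is listed as DLK at 195 in the embryo and 1.93 in the adult (log2 -6.66). SFRP1 and SFRP2, secreted Wnt binders, had 17.2 and 1.13 and 21.8 and 1.06, and MEST, an imprinted gene linked to fat mass in mice, had 46.0 and 5.52. PDGFRA, the receptor that marks fibro-adipogenic progenitors, had 6.48 and 15.7 (log2 1.28), a direction that flips under each of the 4 planned scalings. Of 13 transcription factors of adipogenesis, 2 have a row, near the share of 22.4% for all background genes. SREBF1, a regulator of lipid synthesis genes, had 5.48 and 22.8, a direction that flips under each of the 4 planned scalings, and KLF15 had 0.766 and 8.42, which flips after centring on the housekeeping list. For brown and beige adipocytes, 3 of 9 symbols have a row. These were CIDEA, ZIC1 (3.45 and 10.8, flipped by each planned scaling) and PRDM16, the brown fat regulator, which was higher in the embryo (0.470 and 0.0823). UCP1 has no row.

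**Figure D3:**
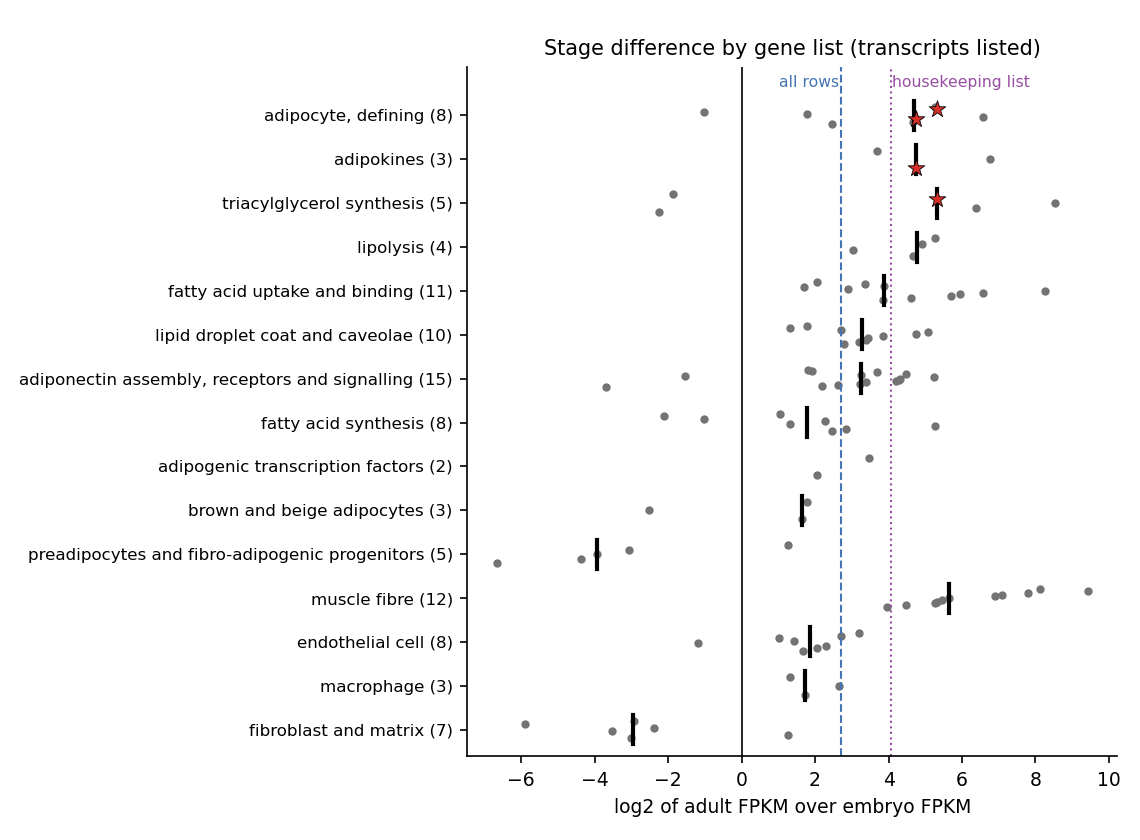
Log2 of adult over embryonic FPKM (horizontal axis) for the transcripts of each gene list, with the number of listed transcripts in brackets, stars for ADIPOQ and DGAT2, and a black bar at the median of lists with at least 3 transcripts. The dashed line is the median of all transcripts (2.71) and the dotted line that of the housekeeping list (4.06), and values to the left of the dotted line fall below 0 after centring on it. A TNNT3 and an FN1 transcript listed at 0 in 1 stage are not drawn. ADIPOQ and DGAT2 lie to the right of both lines and to the left of the muscle fibre median of 5.64.

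Markers of muscle fibres and of other cells, and the FPKM totals of the listed transcripts, also differed between the stages. In whole muscle, fewer cells of a type and less RNA per cell cannot be told apart. Markers of muscle fibres were all higher in the adult, with 12 of 12 transcripts and a median log2 difference of 5.64. MYLPF, a myosin light chain of fast fibres, went from 784 to 30372, which is 3111 times the ADIPOQ level in the embryo and 4499 times in the adult. For TNNC2, a calcium sensor of fast fibres, the values were 2099 and 32411, or 8329 and 4801 times the ADIPOQ level. ADIPOQ was thus smaller beside MYLPF and larger beside TNNC2 in the adult, whereas DGAT2 stood at 5.31 against 5.28 for MYLPF. Centred on the median of the muscle fibre list, an alternative added after the data were seen, ADIPOQ had -0.90 and DGAT2 -0.33, so that both directions flip.

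The lists for the other cells of the muscle had smaller median differences than the muscle fibre list, though single markers in them differed by more. Of 8 endothelial transcripts, 7 were higher in the adult (90.3% in the whole table), with a median of 1.86. KDR, a receptor for vascular growth factor, had 5.41 and 14.5, which is 21.4 times the ADIPOQ level in the embryo and 2.15 times in the adult. PECAM1, listed under its Ensembl identifier, had 11.5 and 36.7. Of 6 transcripts of smooth muscle and pericytes, 5 were higher in the adult. Their median of 2.50 drops below 0 at the same FPKM total and after centring on the housekeeping list. The highest in level were DES (426 and 6592, log2 3.95), TAGLN (13.0 and 114, log2 3.13) and ACTA2 (14.7 and 53.8, log2 1.87). The adult level of DES was near that of the muscle fibre marker CKM (169 and 7471). In the same smooth muscle and pericyte list, RGS5, a signalling regulator of pericytes, had 0.170 and 26.0 (log2 7.26). This was a larger difference than that of ADIPOQ, DGAT2 or the muscle fibre median. The 3 listed macrophage transcripts had a median of 1.73. The 7 fibroblast and matrix transcripts stand for 5 genes, because FN1 is listed several times, each time higher in the embryo. Of these 7 transcripts, 6 were higher in the embryo (median -2.97). COL1A2, a collagen chain, had the highest level of these (630.2 and 78.7, log2 -3.00), and POSTN, a matrix protein, the largest difference (45.4 and 0.770, log2 -5.88). The endothelial and macrophage medians drop below 0 under each of the 4 planned scalings. No symbol of the red blood cell list has a row. The summed FPKM of the endothelial list was 36.5 in the embryo and 96.9 in the adult, that of the macrophage list 15.8 and 68.0, and that of the muscle fibre list 4266 and 146492. The part of these cell types in the difference of ADIPOQ and DGAT2 was not tested.

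The direction of both genes stayed the same under the 4 scalings planned for this comparison. The 20 listed transcripts of a housekeeping list were all higher in the adult, from log2 1.16 (EEF1A1) to 6.79 (GAPDH). They include genes of glycolysis such as GAPDH, GPI (5.77) and PGK1 (5.04). The list is therefore not a reference known to be equal between the stages. Centred on the median of this list, ADIPOQ had a log2 difference of 0.69 and DGAT2 of 1.26. Centred on 72 cytosolic ribosomal protein transcripts, the values were 2.44 and 3.01, and with both stages scaled to the same FPKM total, 1.49 and 2.06. These scalings lower every log2 value by 4.06, 2.31 and 3.25, and they leave 19.3%, 60.3% and 35.1% of all transcripts higher in the adult. Of the 59 genes selected by the naming rule with a higher adult value, they turn 26, 12 and 18 lower. Since the table holds only called transcripts, most of them higher in the adult, the size of each shift depends on the calling. The libraries differed as well. The paper reports a smaller exonic share, a larger intronic share and a lower mapping ratio for the embryonic reads than for the adult ones. The part of these library differences in the FPKM values was not tested.

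The listed transcripts with the most similar pair of levels were found by distance on the log2 scale over the 2 stage values. For ADIPOQ they were GPN3, MICU3, ELAC2, RPAIN and an unnamed Ensembl gene, at distances from 0.0665 to 0.224. GPN3, a GTPase needed for the assembly of RNA polymerase II, had 0.254 and 7.07, and MICU3, a regulator of mitochondrial calcium uptake, had 0.230 and 7.24. For DGAT2 they were SLC1A3, GALNT14, ESR1, PELI3 and an unnamed Ensembl gene, at distances from 0.299 to 0.510. SLC1A3, a glutamate transporter, had 0.0631 and 3.33, and ESR1, the estrogen receptor alpha, had 0.0930 and 2.27. A pair of stage values is a weak measure of likeness, and the more distant neighbours of DGAT2 show that few listed transcripts were as low in the embryo.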

How the data were processed

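Longissimus muscle of 3 embryos and 3 adult Qinchuan cattle was sequenced after rRNA depletion. The authors trimmed reads with Trim Galore, aligned them to bosTau7 with TopHat2 2.0.14 and assembled transcripts with Cufflinks. The authors deposited FPKM values, 1 per stage (column names read as adult and fetal), for 5288 transcripts that they called different. The deposited GO tables count called and background genes (unit: other). The authors' fold changes, p-values and q-values in these tables were not used.

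Here, log2 of adult over embryonic FPKM was computed without a pseudocount. A transcript at 0 in 1 stage enters counts and no median. Medians need 3 transcripts. Symbols were matched by name, by older names and by RefSeq accessions (ARS-UCD2.0 table; 3651 transcripts matched). The cells of GO labels not used number 206. Gene lists (10 pathway, 7 cell type, and housekeeping) and members were chosen with earlier results of these data known. Named genes are the members, all defining markers, up to 6 per pathway list by size of difference, up to 3 per cell type by level, and the 5 nearest transcripts; others were named for their role after their values were seen. A gene that this rule selects among the adipokines is not reported here. Alternatives were pseudocounts of 1 and 0.1, 4 planned scalings and 1 added, an FPKM minimum of 1, a 4-fold minimum and 1 row per gene. The computation was tested on simulated data. Python 3.11.15, pandas 2.3.3 and numpy 2.4.6 were used.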

Additional observations from a re-analysis of the deposited data

How the results depend on the processing

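No paired analysis was possible because the table gives 1 value per stage and none per animal, so no replicate could be left out either. With a pseudocount of 0.1 the log2 difference was 4.28 for ADIPOQ and 4.14 for DGAT2, and with a pseudocount of 1 it was 2.63 and 1.90. It was 0.69 and 1.26 centred on the housekeeping list, 2.44 and 3.01 centred on ribosomal proteins, and 1.49 and 2.06 at the same FPKM total. At the same total without the 10 most abundant rows it was 1.54 and 2.11. Centred on the muscle fibre list (added after seeing the data), it was -0.90 and -0.33.

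For the other defining markers, the housekeeping centring turned SCD to -1.59 and CIDEA to -2.29. The ribosomal centring turned CIDEA to -0.54. The same total turned them to -0.78 and -1.48, and without the top rows to -0.73 and -1.43. The muscle fibre centring turned SCD to -3.17, CIDEA to -3.87, AQP7 to -0.98 and LIPE to -0.37, and left 1 of the 8 markers, LPL, higher in the adult.

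The number of list members higher in the adult was also followed under the 4 planned scalings. It stayed within 1.5 times for adipokines, triacylglycerol synthesis, lipolysis and the defining markers. For the other lists and labels this number changed by over 1.5 times under at least 1 of these scalings. Centred on the housekeeping list, it was 2 of 10 for the droplet, 0 of 2 for transcription factors, 1 of 8 for fatty acid synthesis, 5 of 11 for uptake, 5 of 15 for adiponectin signalling, 0 of 3 for brown fat and 0 of 5 for precursors. It was 8 of 22 for the PPAR label, 9 of 22 for adipocytokine signalling, 3 of 14 for glycerolipid metabolism, 1 of 5 for the KEGG label of fatty acid biosynthesis (4 without scaling) and 3 of 7 for fat digestion. It was 5 of 17 for the lipid particle, 1 of 4 for adiponectin-activated signalling and 2 of 4 for triglyceride sequestering. Centred on ribosomal proteins, it was 1 for transcription factors, 3 for fatty acid synthesis, 0 for brown fat, 0 for precursors, 7 for glycerolipid metabolism and 2 for adiponectin-activated signalling. At the same FPKM total it was 5 for the droplet, 1 for transcription factors, 1 for fatty acid synthesis, 8 for adiponectin signalling, 0 for brown fat, 0 for precursors, 13 for the PPAR label, 12 for adipocytokine signalling, 4 for glycerolipid metabolism, 2 for fatty acid biosynthesis, 10 for the lipid particle and 1 for adiponectin-activated signalling. Without the top rows it was 6 for the droplet and otherwise 1, 1, 0, 0, 13, 12, 4, 10 and 1 for transcription factors, fatty acid synthesis, brown fat, precursors, the PPAR label, adipocytokine signalling, glycerolipid metabolism, the lipid particle and adiponectin-activated signalling. An FPKM minimum, a 4-fold minimum and 1 row per gene left the count for the defining markers within 1.5 times. The depth behind single FPKM values is unknown, and embryonic values under 1 limit the precision of every ratio that uses them.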
